A study of Mus musculus with 6 samples.

Results

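The renin-angiotensin system was followed through 9 genes, chosen by gene symbol: the precursor gene Agt, the enzyme genes Ren1, Ace, Mme and Enpep, and the receptor genes Agtr1a, Agtr2, Mas1 and Atp6ap2. They were 9 of the 21678 genes with a symbol on the arrays, and each was measured by 1 probe set. The RNA came from whole kidneys of BALB/c mice, all male and 10 to 12 weeks old, after 26 min of ischemia and reperfusion of that kidney with removal of the other. The groups were 3 arrays of kidneys from mice that received vehicle (20% 2-(hydroxypropyl)-b-cyclodextrin, in water) and 3 from mice that received m4PTB at 100 mg/kg, each 24 h after injury. Kidneys were taken 12 h later, at day 1.5, and had been chosen for a similar degree of injury by serum creatinine, blood urea nitrogen and Kim1 expression. m4PTB is known as methyl 4-(phenylthio)butanoate, an inhibitor of histone deacetylases. All 6 kidneys carried the injury, and no uninjured kidney was analysed here. Vehicle replicate 3 stood apart from the other arrays, with a mean correlation of 0.987 to the rest against 0.993 to 0.994 for each of the others. Several values below are also given without it.

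In the textbook pathway, angiotensinogen, the product of Agt, is cut by renin to angiotensin I, and angiotensin-converting enzyme trims this to angiotensin II. Angiotensin II raises vascular tone and renal sodium reabsorption mainly through the AT1 receptor, while the AT2 receptor and Mas, the receptor of a shorter angiotensin peptide, are known for opposing actions. In the kidney, renin is made by juxtaglomerular cells of the afferent arteriole, and Ace, Mme and Enpep are abundant on the brush border of the proximal tubule, where Agt is also transcribed.

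The 6 genes of this system with signal above background, Ren1, Ace, Mme, Enpep, Agtr1a and Atp6ap2, had group means that differed by at most 0.13 on the log2 scale between vehicle and m4PTB kidneys. No gene passed the threshold, a limma p under 0.05 after Benjamini-Hochberg adjustment over 18238 genes, whether among the 8 that entered the test (0 called) or among all genes (0 called, 0%). The largest difference among the 8 tested genes was that of Enpep, and the median was 0.00199, against 0.01 for all genes tested. The 95% confidence interval lay within a 1.5-fold change either way for all 8 genes, as it did for 94.4% of all genes tested, and within 1.25-fold for 7 of the 8, all but Mas1. None of the 8 (0) had a fitted difference of 1.5-fold or more, against 0.537% of all genes.

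Signal above background was a first difference among the genes. On each array, the 5222 probe sets that serve as negative controls had a 90th percentile between 7.73 and 7.86 on the log2 scale and a median between 5.56 and 5.95. Ren1, Ace, Mme, Enpep, Agtr1a and Atp6ap2 were above that 90th percentile on all 6 arrays. Agt, Mas1 and Agtr2 were below it on all 6. So was the median signal of all genes tested, between 7.45 (vehicle replicate 3) and 7.55 (m4PTB replicate 3). Agt was above 62.6% to 76.2% of the negative controls, depending on the array, Mas1 above 39.5% to 53.1% and Agtr2 above 21.4% to 40.9%. Agtr2 reached a log2 signal of 5 on 1 array, where 3 arrays were needed, so it did not enter the main limma test. The plot of signals against the negative controls shows this division.

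**Figure D1:**
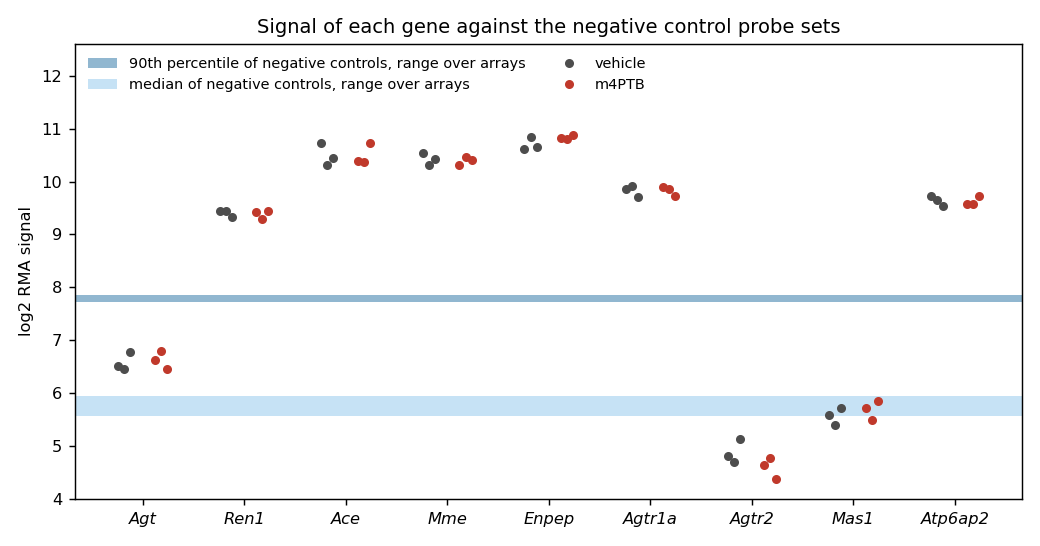
Log2 RMA signal (vertical axis) of the 9 genes on the 3 vehicle and 3 m4PTB arrays, 1 point per array, against the range over arrays of the median and of the 90th percentile over negative controls. Ren1, Ace, Mme, Enpep, Agtr1a and Atp6ap2 sit above both bands, and Agt, Mas1 and Agtr2 sit below the upper band.

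Agt encodes angiotensinogen, the only known precursor of the angiotensins. Its log2 signal was 6.50, 6.46 and 6.77 in vehicle replicates 1 to 3 and 6.63, 6.79 and 6.46 in m4PTB replicates 1 to 3. Each group held a high and a low array, and the groups overlapped. The group means, 6.58 ± 0.17 for vehicle and 6.63 ± 0.16 for m4PTB (SD, n = 3 each), differed by 0.05, with a 95% interval from -0.22 to 0.32 (limma adjusted p = 0.906, exact two-sided permutation p = 0.7). Without vehicle replicate 3 the difference was 0.15. The probe set lay among the negative controls, so the interval is one of the measured signal only.

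Ren1 encodes renin, the protease that starts the cascade. Its log2 signal was 9.44, 9.44 and 9.33 in the vehicle kidneys and 9.43, 9.29 and 9.45 in the m4PTB kidneys. The highest and the lowest of the 6 values were both m4PTB arrays, and they differed by 0.16. The group means were 9.40 ± 0.06 and 9.39 ± 0.09 (SD, n = 3 each), and the difference was -0.01 with an interval from -0.19 to 0.16 (limma adjusted p = 0.971, exact permutation p = 0.8). On the linear scale this interval runs from 0.878-fold to 1.12-fold, so a change of Ren1 signal of 1.25-fold in either direction lay outside it. In whole kidney, fewer renin cells and less renin RNA per cell cannot be told apart, and the same holds for every gene below.

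Ace encodes angiotensin-converting enzyme, a zinc peptidase that makes angiotensin II and also degrades bradykinin. Its log2 signal was 10.72, 10.31 and 10.45 in vehicle kidneys and 10.38, 10.36 and 10.73 in m4PTB kidneys. A high array stood in each group, vehicle replicate 1 and m4PTB replicate 3, and the remaining 4 arrays lay close together. Both groups had a mean of 10.49 ± 0.21 (SD, n = 3 each), with an interval of the difference from -0.32 to 0.32 (limma adjusted p = 0.999, exact permutation p = 1). Replicates of 1 group thus spread over up to 0.42 log2 units for Ace, more than for Ren1, Mme, Enpep, Agtr1a or Atp6ap2.

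Mme encodes neprilysin, a membrane peptidase that degrades angiotensins, kinins and natriuretic peptides. It was at 10.53, 10.32 and 10.43 in vehicle kidneys and at 10.31, 10.46 and 10.41 in m4PTB kidneys. Of the m4PTB values, 2 lay inside the vehicle range and the other just below it. The group means of 10.43 ± 0.11 and 10.39 ± 0.08 (SD, n = 3 each) differed by -0.03, with an interval from -0.22 to 0.15 (limma adjusted p = 0.912).

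Enpep encodes glutamyl aminopeptidase, which removes the first residue of angiotensin II and so makes angiotensin III. It was at 10.62, 10.84 and 10.65 in vehicle kidneys and at 10.83, 10.80 and 10.87 in m4PTB kidneys. The m4PTB arrays were close to each other and at the level of vehicle replicate 2, whereas vehicle replicates 1 and 3 were lower. The group means were 10.70 ± 0.12 and 10.84 ± 0.04 (SD, n = 3 each). The difference of 0.13 had an interval from -0.05 to 0.32 and the smallest unadjusted p among the 8 genes, and it did not pass the test (limma adjusted p = 0.699, exact permutation p = 0.3). Without vehicle replicate 2 the difference became 0.20 and the remaining groups no longer overlapped, with an unadjusted limma p of 0.0364 and an adjusted p of 0.497. No other setting that was tried gave any of the 9 genes an unadjusted p under 0.05.

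**Figure D2:**
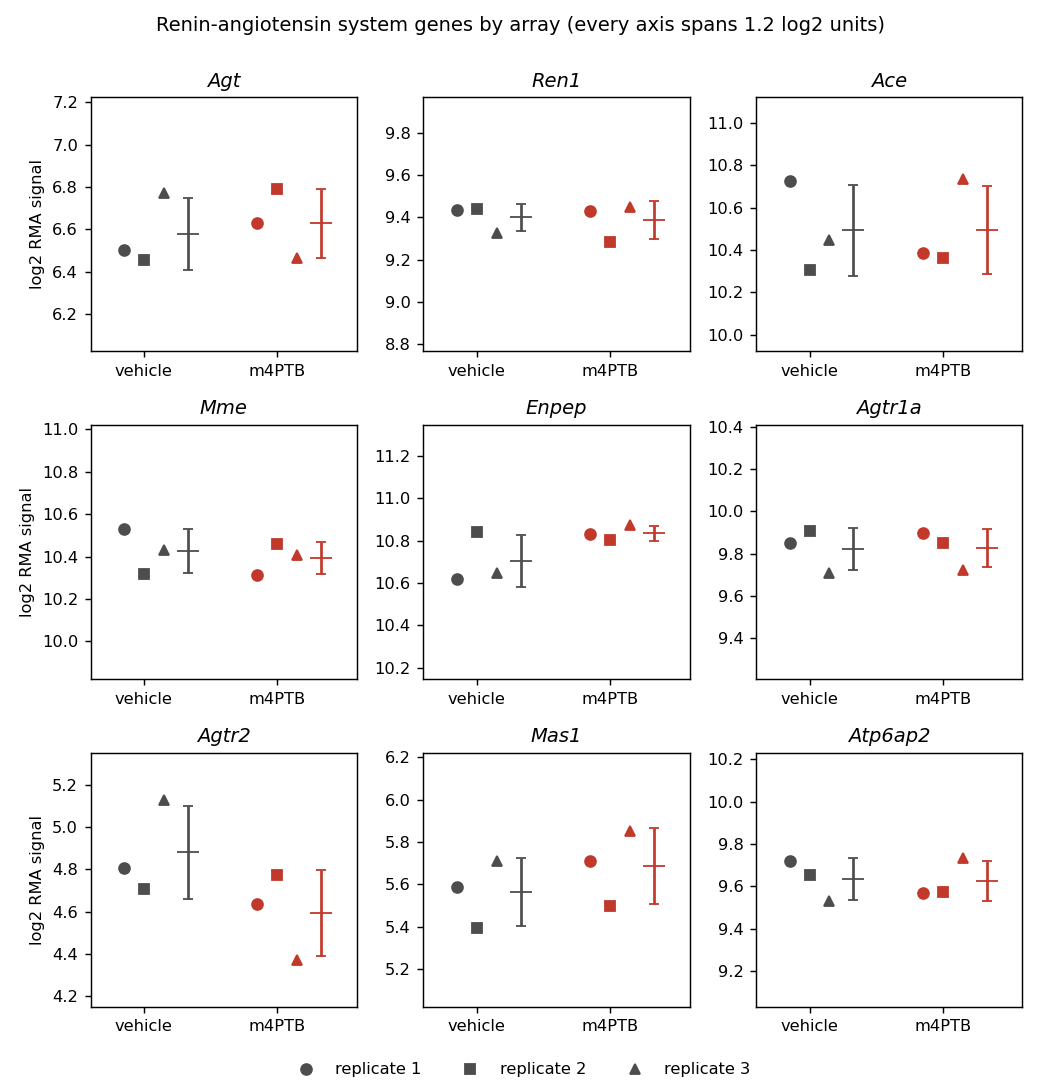
Log2 RMA signal (vertical axes, each spanning 1.2 log2 units) of each gene in the vehicle and m4PTB kidneys, with 1 symbol per replicate and the mean ± SD of 3 arrays as a bar beside each group. The groups overlap for every gene, and the high Ace arrays are vehicle replicate 1 (10.72) and m4PTB replicate 3 (10.73).

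Agtr1a encodes the main AT1 receptor of the rodent kidney, through which angiotensin II acts on vessels and tubules. Its log2 signal was 9.85, 9.91 and 9.71 in vehicle kidneys and 9.90, 9.85 and 9.72 in m4PTB kidneys. All 3 m4PTB values lay within the vehicle range. The group means were 9.82 ± 0.10 and 9.82 ± 0.09 (SD, n = 3 each), and the interval of the difference ran from -0.19 to 0.19 (limma adjusted p = 0.997).

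Atp6ap2 encodes the (pro)renin receptor, which is also an accessory subunit of the vacuolar proton pump. It was at 9.72, 9.65 and 9.53 in vehicle kidneys and at 9.57, 9.57 and 9.73 in m4PTB kidneys. As for Ace, the highest array of each group was vehicle replicate 1 and m4PTB replicate 3. The group means of 9.63 ± 0.10 and 9.62 ± 0.10 (SD, n = 3 each) differed by -0.01, with an interval from -0.20 to 0.18 (limma adjusted p = 0.978).

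The receptor genes Mas1 and Agtr2 sat at background. Mas1 was at 5.59, 5.39 and 5.71 in vehicle kidneys and at 5.71, 5.50 and 5.85 in m4PTB kidneys, with overlapping groups. Its difference of 0.12 had the widest upper bound on the linear scale, 1.31-fold, and did not pass (limma adjusted p = 0.769). Agtr2, the gene of the AT2 receptor, which is known to be abundant in the fetal kidney and scarce in the adult one, was at 4.81, 4.71 and 5.13 in vehicle kidneys and at 4.63, 4.77 and 4.37 in m4PTB kidneys. Vehicle replicate 3 was its highest array and m4PTB replicate 3 its lowest. The group means were 4.88 ± 0.22 and 4.59 ± 0.20 (SD, n = 3 each), and the exact permutation test gave p = 0.2, where 0.1 is the smallest p that 3 against 3 arrays allow. All 6 values lay below the median of the negative controls of their array, so no level of Agtr2 is claimed from them.

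Across the 9 genes, 0 had groups that did not overlap, where 14.6% of all genes tested did (9.38% higher and 5.21% lower in m4PTB kidneys), and 0 of the 8 tested genes had an unadjusted limma p under 0.05, where 7.23% of all genes did. The group difference was smaller than the SD of the vehicle arrays for 7 of the 8 tested genes, all but Enpep. By sign, 5 of the 8 were higher in m4PTB kidneys, as were 54.5% of all genes, and 3 lower, but this split turned to 2 higher and 6 lower once each array's median was subtracted, which moved the median of all genes from 0.01 to -0.05. It was 3 higher and 5 lower without vehicle replicate 3, and 8 higher and 0 lower without vehicle replicate 1. No direction is therefore given for the system.

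The rest of the angiotensin pathway was described with 18 other genes, of which 14 entered the test, 8 higher and 6 lower. The set had 0 called genes, 2 at an unadjusted p under 0.05 (7.23% of all genes) and 3 with groups that did not overlap (14.6% of all genes), around a median difference of 0.03. Ren2 was not matched to a probe set, and the mast cell and neutrophil protease genes Cma1, Cpa3 and Ctsg were too dim to be tested.

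The 3 genes of that set with separate groups were Agtr1b, Agtrap and Prcp. Agtr1b, the second AT1 receptor gene of mice, was at 6.24, 6.31 and 6.24 in vehicle kidneys and at 6.45, 6.37 and 6.58 in m4PTB kidneys. Every m4PTB value was above every vehicle value, and all 6 were under the negative controls' 90th percentile. Its difference was 0.20 with an interval from 0.03 to 0.38 (limma adjusted p = 0.679). Agtr1b and Agtr1a are close paralogs whose probes could share targets, although the array annotation marks neither probe set as cross-hybridising.

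Agtrap encodes a protein that binds the AT1 receptor and promotes its internalisation. It was at 9.97, 9.97 and 9.87 in vehicle kidneys and at 9.75, 9.84 and 9.80 in m4PTB kidneys, a difference of -0.14 with an interval from -0.30 to 0.02 (limma adjusted p = 0.685). Prcp, whose product prolylcarboxypeptidase removes the last residue of angiotensin II, was at 9.62, 9.67 and 9.52 in vehicle kidneys and at 9.75, 9.77 and 9.71 in m4PTB kidneys. Its difference was 0.14 with an interval from -0.02 to 0.30 (limma adjusted p = 0.685). Klk1, the gene of tissue kallikrein, a kinin-forming protease of the distal nephron, had overlapping groups and differed by -0.19, also without passing (limma adjusted p = 0.685).

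**Figure D3:**
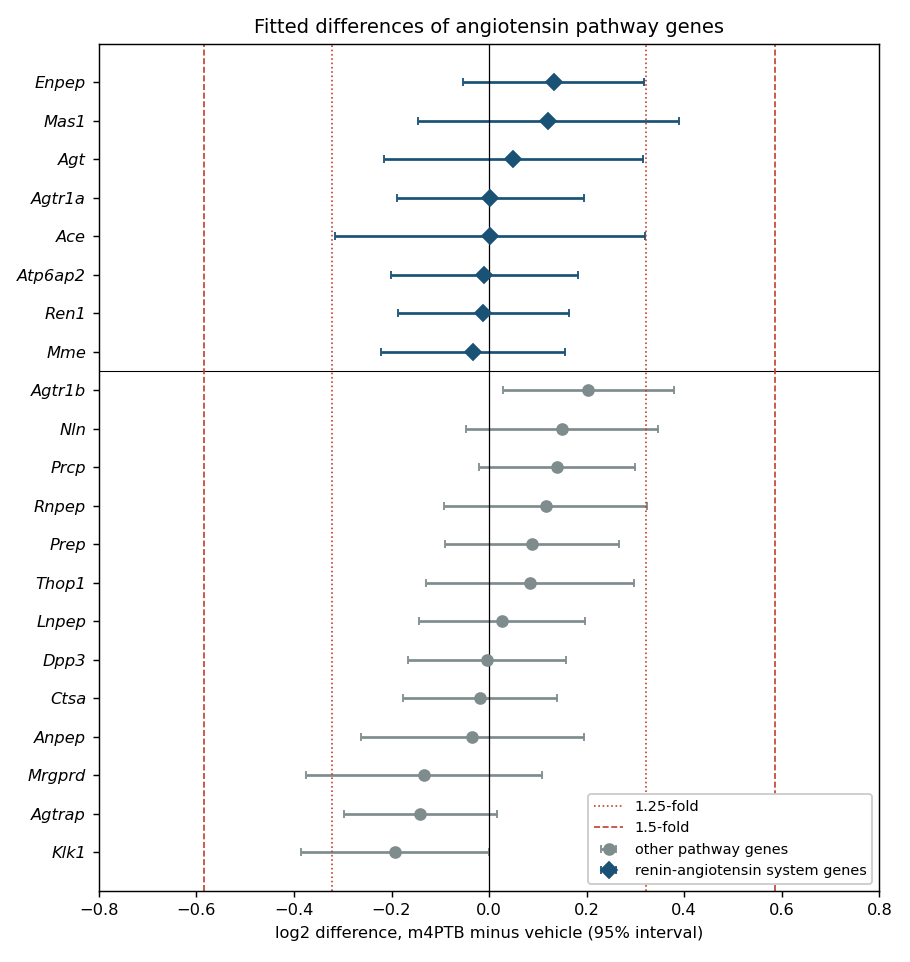
Fitted log2 difference, m4PTB minus vehicle (horizontal axis), with its 95% interval for the 8 tested renin-angiotensin system genes (diamonds) and 13 of the 14 other angiotensin pathway genes (circles), each from 3 against 3 arrays. Dotted and dashed lines mark 1.25-fold and 1.5-fold. The diamonds lie between -0.03 (Mme) and 0.13 (Enpep), and every interval shown stays inside 1.5-fold.

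The renin control genes gave a median difference of 0.00775 over 18 tested genes, 10 higher and 8 lower, with 0 called. Separate groups were seen for 2 of them, both higher, as were 9.38% of all genes. On no array were 9 of the 18 above the negative controls' 90th percentile. Those of the salt-sensing limb and macula densa included Slc12a1, the sodium-potassium-chloride cotransporter (-0.21), Casr, the calcium-sensing receptor (-0.21), and Ptgs2, cyclooxygenase-2 (0.18, below the negative controls' 90th percentile on all 6 arrays). Vdr, the vitamin D receptor, which is known to repress renin transcription in mice, differed by -0.16. The limma adjusted p of each of these 4 genes was 0.685. Akr1b7 and Gja5, known as genes of renin cells, were below the negative controls' 90th percentile on all 6 arrays.

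The signalling genes downstream of the AT1 receptor held the gene of smallest p in the wider pathway. Arrb2, which encodes a beta-arrestin that binds the activated receptor, was at 7.56, 7.53 and 7.52 in vehicle kidneys and at 7.84, 7.86 and 7.94 in m4PTB kidneys. The groups were far apart relative to their spread, with a difference of 0.34 and an interval from 0.19 to 0.49, but the gene did not pass over all genes tested (limma adjusted p = 0.547). Its m4PTB values were just above the negative controls' 90th percentile and its vehicle values below it. The G protein gene Gna12 (0.13) and the IP3 receptor gene Itpr3 (0.19) were among the next, each with separate groups and a limma adjusted p of 0.685. Arrb1, the gene of another beta-arrestin, differed by 0.05 with overlapping groups. Of the 22 genes 20 were higher and 2 lower, where 54.5% of all genes were higher, and 7 had separate groups, where 14.6% of all genes did. None (0) was called, and the median was 0.04. That median was 0.00379 without vehicle replicate 3 and -0.01 once each array's median was subtracted. The subtraction also moved the median of all genes, from 0.01 to -0.05. No direction is given for the list.

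Peptidases and pump subunits that share a site with the studied proteins were listed next. Among 11 other brush border peptidase genes, 4 were higher and 7 lower, 0 were called and the median was -0.03. That median ran from -0.12 without m4PTB replicate 3 to 0.02 without m4PTB replicate 2, so it has no settled direction. Dpp4, dipeptidyl peptidase IV, differed by 0.21 and Xpnpep2, an aminopeptidase known to cleave bradykinin, by 0.23 (limma adjusted p of 0.685 and 0.679). These were the 2 of the 11 with separate groups, both higher in m4PTB kidneys, as were 9.38% of all genes. All 6 Xpnpep2 values were under the negative controls' 90th percentile. Mep1b, the meprin beta subunit, was at 10.11, 8.90 and 9.70 in vehicle kidneys and at 9.23, 9.47 and 9.97 in m4PTB kidneys. Its highest array in each group was again vehicle replicate 1 and m4PTB replicate 3, as for Ace, and its lowest was vehicle replicate 2, as for Ace. Mep1b was picked for this likeness after its values were seen.

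The vacuolar proton pump, to which the product of Atp6ap2 belongs, had 12 of 22 subunit genes higher and 10 lower, 0 called and a median of 0.00721. Of the 22, 5 had every m4PTB value below every vehicle value and 1 the reverse, where 5.21% and 9.38% of all genes did. Atp6v1g3, a subunit of acid-secreting intercalated cells, had the smallest p (a difference of -0.28, limma adjusted p = 0.679). Neprilysin degrades several peptides of the kinin, endothelin and natriuretic peptide systems. Of 14 tested genes of these systems, 5 were higher and 9 lower, with 0 called and a median of -0.01. Most were dim: 10 of the 14 were above the negative controls' 90th percentile on no array, and 3 on at least 3 arrays. Npr3, the natriuretic peptide clearance receptor, differed by -0.25 (limma adjusted p = 0.679). Every m4PTB value was below every vehicle value, but only just: replicate 2 was at 7.80 in both groups after rounding. Only 2 arrays were above the negative controls' 90th percentile.

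Markers of the cells that carry these genes were read beside them. The 13 proximal tubule markers and 8 distal nephron markers all lay above the negative controls' 90th percentile on at least 3 arrays, so the defining genes of the labelled tissue were present. The mean of the proximal tubule markers was between 12.04 and 12.10 in vehicle kidneys and between 11.96 and 12.02 in m4PTB kidneys, ranges that did not overlap. A mean over many genes spreads less than a single gene, so it is not set against the overlap of Ace, Mme and Enpep. The median difference was -0.07 over the 13 proximal markers (6 higher, 7 lower), of which 4 were at an unadjusted p under 0.05 (7.23% of all genes) and 3 had separate groups, all lower (5.21% of all genes), with 0 called. It was -0.12 over the 8 distal markers (0 higher, 8 lower, 0 called) and -0.04 without m4PTB replicate 1. Over all genes, 54.5% were higher. Mural cell markers are genes of smooth muscle and pericytes, and thus of the vessel wall that holds renin cells. All 10 were higher in m4PTB kidneys, against that 54.5% of all genes. Their median difference was 0.13 (0.06 without vehicle replicate 3), with 0 called and 0 with separate groups, where 14.6% of all genes had them. Vehicle replicate 3 had the lowest mean of the mural markers, 8.27 against 8.42 to 8.57 on the other arrays. The lowest Ren1 value of the 6 arrays, 9.29, was on m4PTB replicate 2, where the mural mean was 8.51. Vehicle replicate 3 held the next lowest Ren1 value, 9.33. The share of cell numbers in any of these values was not tested.

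Markers of other cells were also listed. Macrophage markers had a median difference of 0.19 over 8 genes (8 higher, 0 lower), where 54.5% of all genes were higher. This median falls to 0.11 if vehicle replicate 3 is left out and to 0.09 if m4PTB replicate 1 is. The macrophage means ran from 7.05 to 7.48 in vehicle and from 7.29 to 7.66 in m4PTB kidneys. Of these 8 genes, 4 were above the negative controls' 90th percentile on no array, and 3 on at least 3 arrays. Podocyte markers had a median of 0.08 over 6 genes (0.02 without vehicle replicate 3). Among these 6, 3 were above that percentile on no array. Endothelial markers had 3 of 11 genes with separate groups, all higher in m4PTB kidneys, as were 9.38% of all genes. Their median was 0.02, which was 0.00160 without vehicle replicate 3 and -0.04 once each array's median was subtracted. Fibroblast markers had one of 0.13 over 7 genes, which was -0.01 without vehicle replicate 3. Markers of neutrophils (4 tested genes of 8), of B cells (4 of 7), on whose precursors Mme and Enpep are also known to be expressed, and of the adrenal gland (8 of 10), which lies on the kidney, were below the negative controls' 90th percentile on all 6 arrays, with medians of 0.05, -0.12 and -0.08. Without vehicle replicate 3 the B cell median was 0.05 and the adrenal median 0.07, and without vehicle replicate 2 the neutrophil median was -0.02, so none of these lists has a settled direction. No gene of any of these lists was called.

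**Figure D4:**
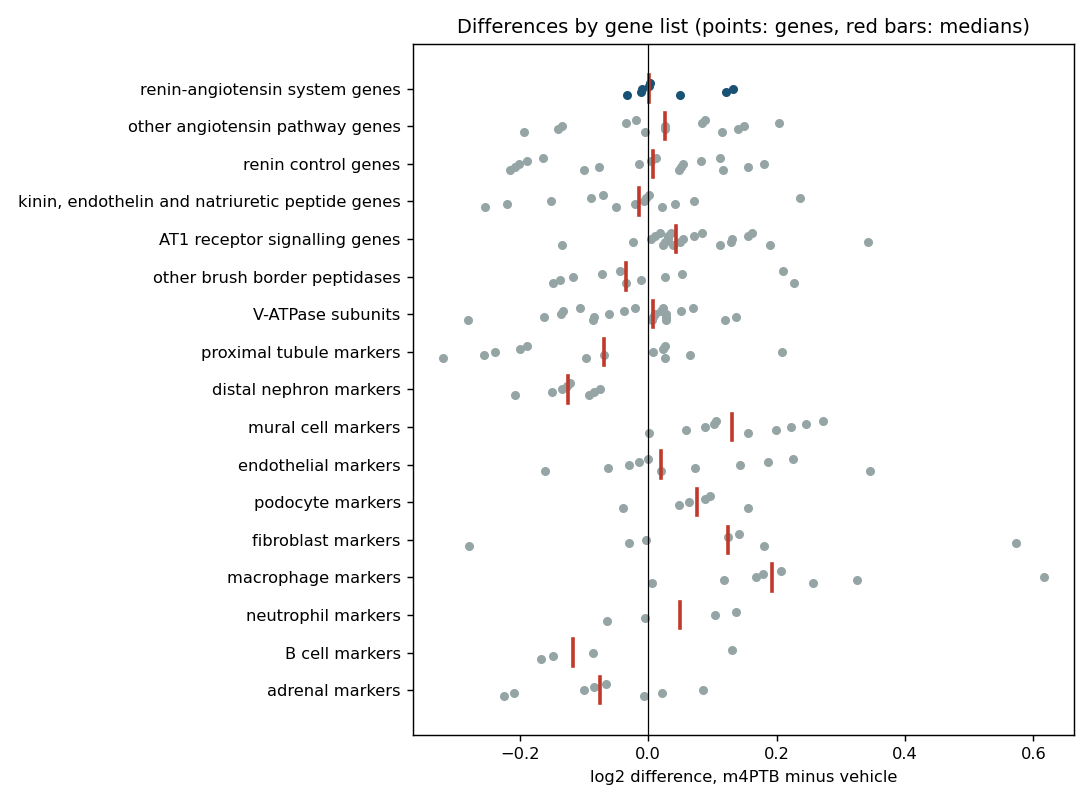
Fitted log2 difference, m4PTB minus vehicle (horizontal axis), of each tested gene in the renin-angiotensin system and in 16 other gene lists, with the list median as a red bar. The 8 tested renin-angiotensin system genes lie between -0.03 and 0.13 with a median of 0.00199.

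The genes whose profile over the 6 arrays came closest to that of Ren1 were Cnksr1, Psmc2 and Ubxn8. The root mean square distance between their deviations from their own means and those of Ren1 was 0.00831, 0.0193 and 0.0213 log2 units, out of 13004 genes compared. For Agt the closest were Tmc3, Ppfia4 and Ldhc, at 0.0197, 0.0240 and 0.0329 of 15715 genes. These are descriptions of 6 arrays that share 1 normalization.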

How the data were processed

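The deposited values were log2 signals of 35556 probe sets on 6 Affymetrix Mouse Gene 1.0 ST arrays (array type per the file headers), made by the authors with RMA. The submitters' processing notes name Expression Console 1.1. RMA quantile-normalizes arrays, so a shift of most genes would not be seen. Symbols came from the deposited table's annotation (score and rank columns were not used), with 2269 old symbols replaced through RefSeq's table for GRCm38.p6. The 6 signal columns of that table match no sample label and were not used. Probe sets reaching log2 5 on 3 or more arrays entered, 1 per gene by highest mean. The comparison was fitted with limma 3.58.1 (lmFit, eBayes) in R 4.3.3 over 18238 genes, with Benjamini-Hochberg adjustment, and the steps were tested on simulated data. No sequencing depth applies, and the number of arrays limits precision. Nothing in the sources used here says that replicates are separate animals, so p-values measure the spread between samples, which may be partly technical.

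The 9 genes and the 16 lists were chosen with earlier results of these data known. The genes named were the 9, the up to 4 of smallest p per list (not all are reported here), Agtr1b and Ren2, and the 3 nearest profiles of Ren1 and Agt; Akr1b7, Gja5 and Mep1b were added after their values were seen. Replicate numbers gave no sign of pairing (deviations of same-numbered arrays correlated at -0.13, -0.05 and -0.08). With 3 arrays per group this cannot show that the samples were unpaired. Coordinates are not given, since the annotation names another build. Alternatives were 14 settings of normalization, filter, variance model, probe set choice, pairing and left-out arrays.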

Additional observations from a re-analysis of the deposited data

How the results depend on the processing

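No setting called any gene (lowest adjusted p among the 8 tested genes 0.497). The filters, the variance model, the probe set choice and the replicate block leave a difference as it is by construction, so stability can be read only from the other settings, under which 25 values changed sign. With each array's median subtracted Ace was at -0.0557, Agt at -0.00729 and Agtr1a at -0.0547. After cyclic loess Ace was at -0.0112 and Agtr1a at -0.0267, and with array quality weights Ace was at -0.0246, Agtr1a at -0.0332 and Mme at 0.0131. Leaving out 1 array at a time gave -0.119 to 0.117 for Ace, -0.0312 to 0.148 for Agt, -0.0539 to 0.0526 for Agtr1a, -0.0645 to 0.0335 for Atp6ap2, -0.0870 to 0.0192 for Mme, -0.0485 to 0.0394 for Ren1, 0.09 to 0.20 for Enpep and 0.04 to 0.22 for Mas1. The count of genes with separate groups went from 0 to 1 without vehicle replicate 2 (Enpep) or m4PTB replicate 2 (Mas1), and the count at an unadjusted p under 0.05 from 0 to 1 without vehicle replicate 2. Without the filter Agtr2 could be tested (-0.29, interval -0.61 to 0.03, adjusted p = 0.741), and a filter set at the 90th percentile of negative controls removed Agt and Mas1. Over all genes the count at an unadjusted p under 0.05 was 1318, 772 under that filter and 843 to 1807 with 1 array left out. With medians subtracted the list medians were -0.0500 for pump subunits, -0.0709 for kinin, endothelin and natriuretic genes, -0.0305 for other angiotensin pathway genes, -0.13 for proximal tubule markers and -0.0495 for renin control genes. Cyclic loess gave -0.00330, -0.0256 and -0.0195 for the last 3 of these, array weights -0.0111 and the mean over probe sets 0.0555 for other angiotensin pathway genes. With 1 array left out the ranges were -0.0332 to 0.0267 for pump subunits, -0.04 to 0.00309 for kinin, endothelin and natriuretic genes, -0.0120 to 0.0514 for other angiotensin pathway genes, -0.08 to -0.04 for proximal tubule markers and -0.0240 to 0.0297 for renin control genes. Replicate numbers as a block changed no call: the count at an unadjusted p under 0.05 became 1105, and the lowest adjusted p among the 8 genes 0.806. The cause of these shifts was not tested. Agt, Mas1 and Agtr2 lay within the negative controls, which limits what their probe sets can show.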
